A study of Homo sapiens with 36 samples.

Results

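Expression of 44 genes of homologous recombination, the Fanconi pathway and the replication checkpoint was followed in A375 and HCC827 cancer cells treated with 6-thio-dG alone or on top of a targeted drug. The genes were chosen by symbol for what they are known to do, from a list of 46, and 44 of the 46 had a row in the authors' deposited table of 11828 genes. RAD54B and FANCB have no row and are not analysed here. With 6-thio-dG alone, 25 of the 44 genes fell in A375, against 33.7% of all genes, and 21 rose in HCC827, against 14.8%. The 21 that rose in HCC827 all belonged to the 25 that fell in A375, a pattern shown by 6.95% of all genes.

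Homologous recombination repairs a broken chromosome by copying an intact sister. The MRE11, RAD50 and NBN complex with RBBP8 trims the break to single-stranded DNA, RPA coats that strand, and BRCA2 with PALB2 and BRCA1 prepares it for pairing with the sister. The Fanconi pathway serves forks stopped at DNA crosslinks, where a core complex and the E2 enzyme UBE2T attach ubiquitin to the FANCD2 and FANCI pair, which brings in nucleases and the recombination enzymes. The replication checkpoint senses RPA-coated DNA through ATRIP and ATR and passes the signal through TOPBP1 and CLSPN to CHEK1, while ATM and CHEK2 answer mainly to breaks. Many of these genes are transcribed mostly in cells that are copying DNA.

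The series holds 36 RNA libraries of cancer cell lines, of which 16 belong to a 3-day treatment of A375 and HCC827 with 2 libraries in each of 8 groups, and the 20 libraries of a time course are not analysed here. A375 is an established melanoma line with a BRAF mutation, and HCC827 is an established lung adenocarcinoma line with an EGFR mutation. 6-thio-dG is a nucleoside analogue that telomerase builds into telomeres. In each line, 1 group received DMSO, 1 received 6-thio-dG, 1 received the targeted drug and 1 received both drugs. The targeted drug was PLX4720, an inhibitor of mutant BRAF, in A375, and osimertinib (written "Osimertinb" in the labels), an inhibitor of mutant EGFR, in HCC827. Each line is 1 established line, so a difference between A375 and HCC827 also carries the difference of tissue and of targeted drug. The labels give neither doses nor whether the 2 libraries of a group came from separate cultures, so the p-values may measure only technical spread.

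For 4 comparisons the authors' deposited table lists each gene's log2 fold change with raw and adjusted p-values, and no values per library. The comparisons were 6-thio-dG against the arm headed RNA, read here as the DMSO control, and the combination against the arm headed TKI1, read here as the targeted drug. The header states neither reading, and TKI1 could also mean 1 library of that group, in which case both combination comparisons would rest on a single targeted-drug library. Every value below is a log2 fold change on that scale, and the error after ± is the standard error that the fold change and its p-value imply. Depth per library is unknown. A gene "rose" or "fell" where the authors' adjusted p was under 0.05. Levels are not in the table, so the label of each line could not be checked against its markers: 2 of 7 melanocyte markers, 7 of 7 epithelial markers and 1 of 10 markers of fibroblasts, leukocytes and endothelium have a row, and only their fold changes are listed. In A375, 1 of the 2 melanocyte markers rose with 6-thio-dG alone, and 1 fell in the combination. Of the 7 epithelial markers in A375, 2 fell alone and 3 rose in the combination, and the collagen gene COL1A1, the 1 marker of other cell types, fell by 3.15 alone and by 3.61 in the combination in the authors' deposited table. In HCC827, 2 epithelial markers rose and 2 fell alone, 2 rose and 1 fell in the combination, 1 melanocyte marker fell in the combination, and no other marker was called. MITF, the melanocyte factor, rose by 0.48 in A375 alone, was 0.44 in HCC827 alone without a call, and fell by 1.95 and 0.62 in the combinations of A375 and HCC827 in the authors' deposited table. The keratin KRT18 fell by 1.03 in A375 alone and rose by 2.12 in the A375 combination of the authors' deposited table. The part of these changes in the results below was not tested.

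With 6-thio-dG alone in A375, 25 of the 44 genes fell, where 33.7% of all genes in the authors' deposited table fell, and 8 rose, where 31.3% of all genes rose. Their median fold change was -0.56, against 0.01 over all genes. In HCC827 with the same treatment 21 of the 44 rose, against 14.8% of all genes, and 3 fell, against 14.4%, with a median of 0.50 against 0.01. With 6-thio-dG on top of PLX4720 in A375, 12 genes rose, against 31.2% of all genes, and 7 fell, against 29.3%, with a median of 0.05 against 0.06. With 6-thio-dG on top of osimertinib in HCC827, 1 gene rose, against 17.3%, and 9 fell, against 17.9%, with a median of -0.38 against -0.0039. The share of the 44 genes called thus stood above that of all genes for falls in A375 and for rises in HCC827 with 6-thio-dG alone. It was below or near that of all genes in both combinations. PALB2, XRCC2, FANCF and FANCL were the 4 genes of the 44 (9.09%, against 8.31% of all genes) that were called in none of the 4 comparisons.

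**Figure D1:**
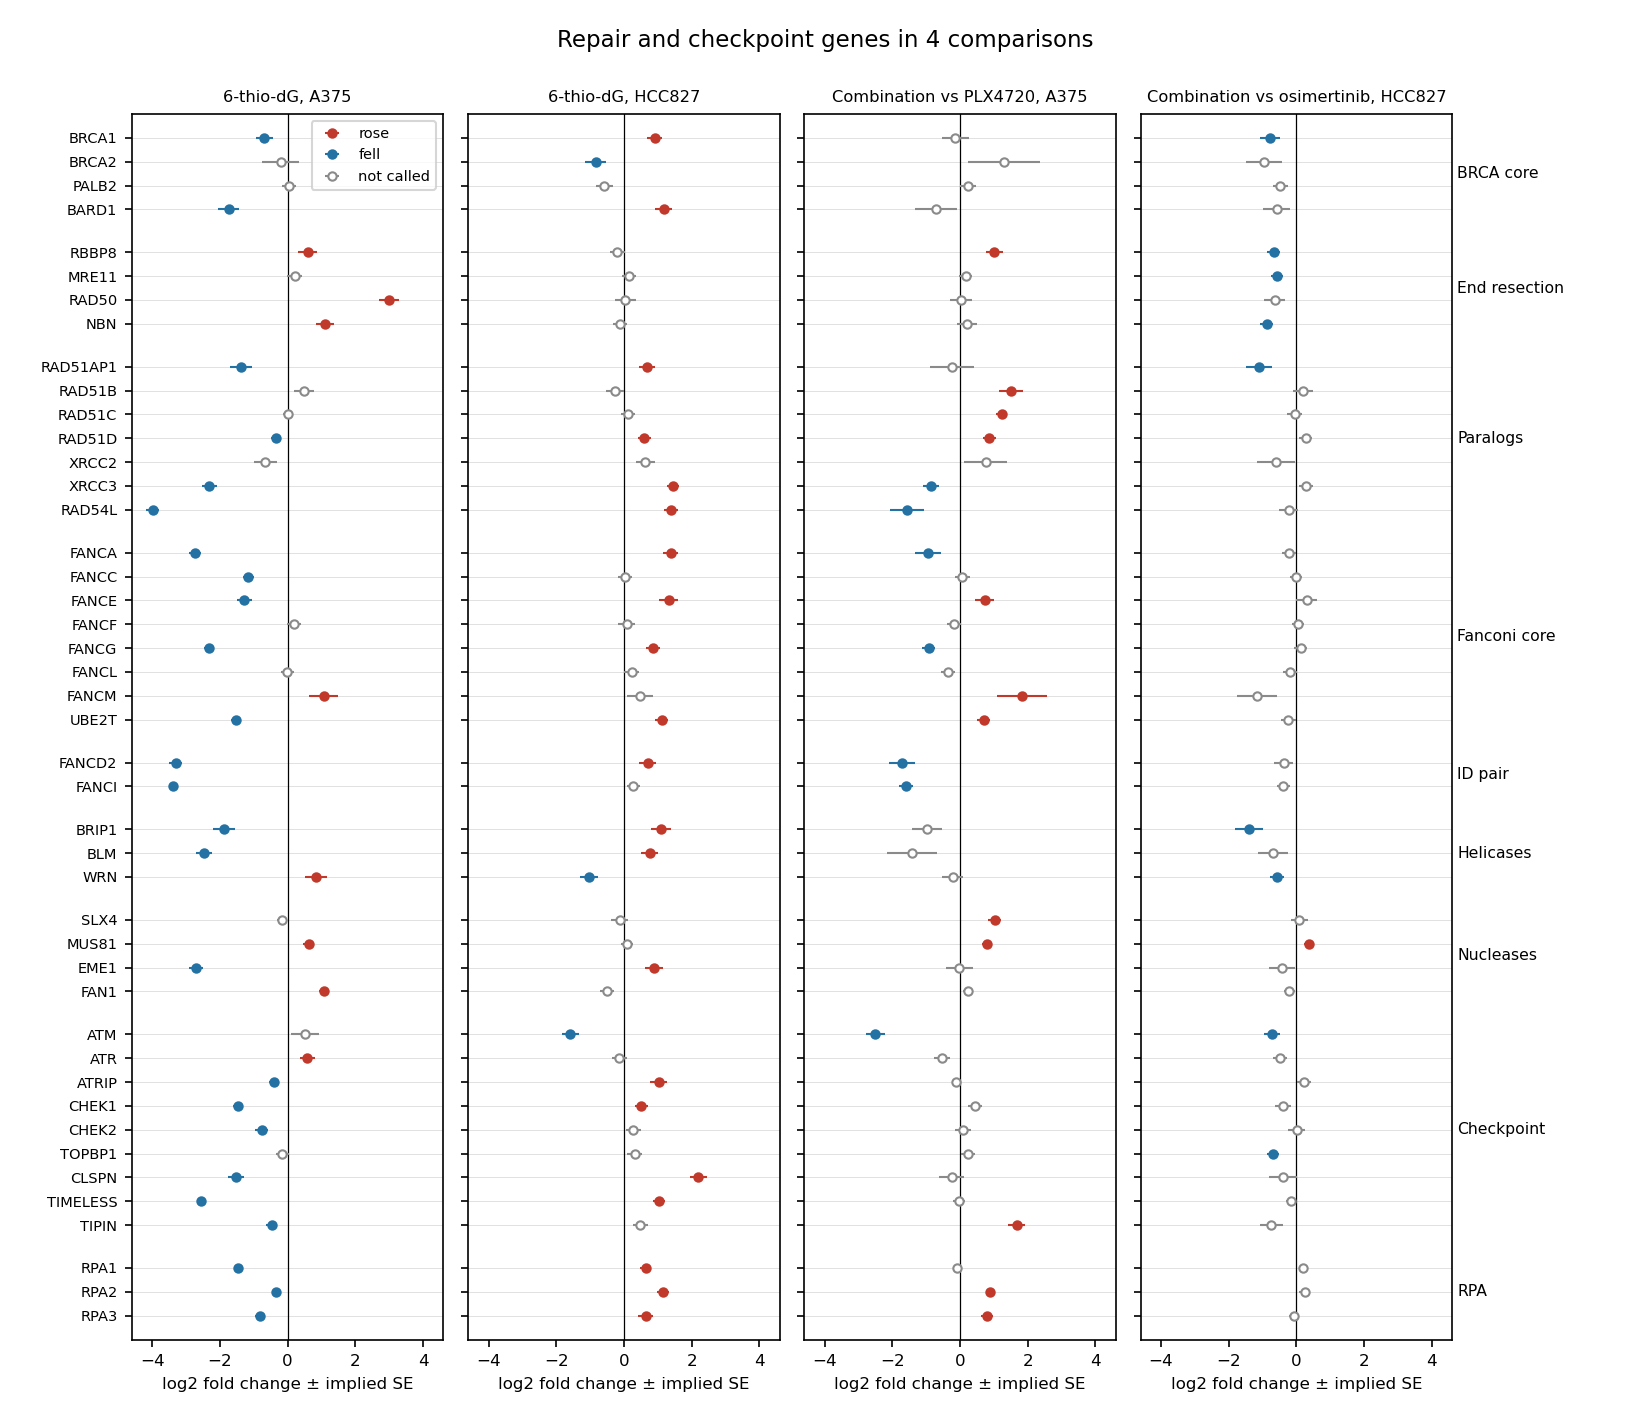
Log2 fold change of the 44 genes (rows, grouped by role) in the 4 comparisons of the authors' deposited table, with bars of 1 implied standard error. Red points rose, blue points fell and open grey points were not called at an adjusted p under 0.05. Blue points prevail with 6-thio-dG alone in A375 (25 of 44, against 33.7% of all genes) and red points in HCC827 (21 of 44, against 14.8%).

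The genes of the BRCA core steer a break into recombination. BRCA1, a ubiquitin ligase, fell by 0.69 ± 0.25 in A375 and rose by 0.91 ± 0.21 in HCC827 with 6-thio-dG alone in the authors' deposited table (adjusted p 0.0103 and 0.000247). BARD1, its obligate partner, moved the same way and further, down by 1.74 ± 0.31 (adjusted p 5.53e-08) in A375 and up by 1.18 ± 0.25 (adjusted p 3.67e-05) in HCC827 in the authors' deposited table. BRCA2, a mediator of recombination, was -0.21 ± 0.54 in A375 without a call and fell by 0.83 ± 0.32 (adjusted p 0.0377) in HCC827 in the authors' deposited table. PALB2, the bridge between BRCA1 and BRCA2, was listed at 0.04 and -0.57 in A375 and HCC827, neither of them called in the authors' deposited table. HCC827 thus had BRCA1 and BARD1 up and BRCA2 down. With the trend on GC content removed, as described further on, BRCA2 was -1.18 in A375 (adjusted p 0.0479) and -0.67 in HCC827 (adjusted p 0.104) from the authors' values, so that it was called in A375 and not in HCC827. On top of PLX4720 in A375 the authors' deposited table called none of the 4, with BRCA1 at -0.14, BARD1 at -0.71, PALB2 at 0.23 and BRCA2 at 1.29 ± 1.06, and unadjusted p under 0.05 also gave 0 of 4. The error of BRCA2 there is the widest of the 44 genes. On top of osimertinib in HCC827, BRCA1 fell by 0.78 ± 0.29 (adjusted p 0.0268) in the authors' deposited table, and BRCA2 at -0.96, BARD1 at -0.58 and PALB2 at -0.47 were not called.

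Of the 4 break-sensing and resection genes, RAD50, NBN and RBBP8 rose in A375 with 6-thio-dG alone (75.0%, against 31.3% of all genes). None fell, and with the trend on GC content removed RAD50 alone of these rises was still called. RAD50, the zinc-hook ATPase of the complex that holds broken ends, rose by 3.00 ± 0.31 (adjusted p 2.15e-21) with 6-thio-dG alone in A375 in the authors' deposited table, the largest rise of the 44. It stood at 0.05 in HCC827, 0.03 in the A375 combination and -0.64 in the HCC827 combination in the authors' deposited table, none of them called. RAD50 lies at chr5:132556019-132646344 on the plus strand (GRCh38), and 79.7% of its annotated exonic bases are shared with AC116366.3 on the same strand, so reads of the 2 could not be told apart there. NBN, the subunit that brings ATM to the break, rose by 1.10 ± 0.25 (adjusted p 4.77e-05) in A375 and fell by 0.88 ± 0.19 (adjusted p 8.06e-05) in the HCC827 combination in the authors' deposited table, against -0.11 and 0.21 without a call in the other comparisons. RBBP8, also named CtIP, which starts resection, rose in both A375 comparisons in the authors' deposited table, by 0.59 alone and by 1.01 ± 0.25 (adjusted p 0.000201) on top of PLX4720. Its first call was close to the threshold, at 0.0488 after the authors' adjustment in their deposited table. In HCC827, RBBP8 was -0.19 without a call and fell by 0.66 ± 0.19 (adjusted p 0.00398) on top of osimertinib in the authors' deposited table. MRE11, the nuclease subunit, was 0.20, 0.15 and 0.16 in the first 3 comparisons without a call and fell by 0.56 in the HCC827 combination in the authors' deposited table. None of the 4 genes was called in HCC827 with 6-thio-dG alone, also at an unadjusted p under 0.05.

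The recombination paralogs and their accessory factors held the largest fall of the 44. RAD54L, a motor protein of strand invasion, fell by 3.99 ± 0.20 (adjusted p 1.56e-84) in A375 and rose by 1.40 ± 0.21 (adjusted p 4.95e-10) in HCC827 with 6-thio-dG alone in the authors' deposited table. On top of PLX4720 it fell by 1.57 ± 0.49 (adjusted p 0.00348), and on top of osimertinib it was -0.23 without a call in the authors' deposited table. Of its exonic bases, 25.1% are shared with LRRC41 on the opposite strand, which the authors' deposited table lists at -0.44 and 0.21 with 6-thio-dG alone. XRCC3, a paralog that pairs with RAD51C, fell by 2.31 ± 0.22 (adjusted p 5.32e-24) in A375 and rose by 1.45 ± 0.18 (adjusted p 4.92e-13) in HCC827 in the authors' deposited table. It fell by 0.85 in the A375 combination and was 0.29 in HCC827 without a call in the authors' deposited table. KLC1 on the opposite strand covers 76.7% of the exonic bases of XRCC3, and the authors' deposited table lists it at -0.45 and -0.10 with 6-thio-dG alone.

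RAD51B, RAD51C and RAD51D rose in the A375 combination. RAD51C, shared by both paralog complexes, was 0.00 and 0.13 with 6-thio-dG alone and rose by 1.23 ± 0.16 (adjusted p 9.19e-14) on top of PLX4720 in the authors' deposited table. RAD51B, its direct partner, was 0.49 and -0.27 and rose by 1.51 ± 0.36 (adjusted p 8.41e-05) in the same comparison of the authors' deposited table. RAD51D fell by 0.36 in A375 with 6-thio-dG alone, rose by 0.60 in HCC827 and rose by 0.87 in the A375 combination in the authors' deposited table. The HCC827 combination left these 3 at 0.21, -0.05 and 0.28 for RAD51B, RAD51C and RAD51D without a call in the authors' deposited table. XRCC2, the partner of RAD51D, was -0.66, 0.64, 0.75 and -0.60 in the order A375 alone, HCC827 alone, A375 combination and HCC827 combination, with no call in the authors' deposited table. RAD51AP1, which strengthens strand invasion, fell by 1.37 in A375 and rose by 0.69 in HCC827 with 6-thio-dG alone in the authors' deposited table. It then fell by 1.10 ± 0.37 (adjusted p 0.0131) in the HCC827 combination and was -0.24 in the A375 combination without a call in the authors' deposited table.

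Of the 8 Fanconi core genes, 5 fell in A375 with 6-thio-dG alone, against 33.7% of all genes, and 1 rose, against 31.3%. In HCC827 with the same treatment 4 of the 8 rose, against 14.8% of all genes. FANCA, the scaffold subunit, fell by 2.73 ± 0.17 (adjusted p 1.61e-54) in A375 and rose by 1.39 ± 0.22 (adjusted p 1.69e-08) in HCC827 with 6-thio-dG alone in the authors' deposited table. In the combinations FANCA fell by 0.95 in A375 and was -0.22 in HCC827 without a call in the authors' deposited table. Of its exonic bases, 23.6% are shared with ZNF276 on the opposite strand, which the authors' deposited table lists at 0.70 and 0.02 with 6-thio-dG alone. FANCG, which binds FANCA, fell by 2.33 ± 0.15 (adjusted p 5.21e-50) in A375 alone, rose by 0.86 in HCC827 alone and fell by 0.93 in the A375 combination, and was 0.13 in the HCC827 combination of the authors' deposited table. FANCE, which bridges the core to FANCD2, fell by 1.28 in A375, rose by 1.32 ± 0.28 (adjusted p 3.23e-05) in HCC827 and rose by 0.73 in the A375 combination in the authors' deposited table, with 0.30 in the HCC827 combination. FANCC, its neighbour in the complex, fell by 1.17 in A375 and was listed at 0.03, 0.07 and -0.01 elsewhere in the authors' deposited table.

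The remaining members of the Fanconi core group are the ubiquitin enzymes, an adaptor and a translocase. FANCL, the ubiquitin ligase itself, was -0.02, 0.23, -0.35 and -0.19 across the 4 comparisons in the order above, with no call in the authors' deposited table. FANCF, an adaptor, was 0.18, 0.08, -0.18 and 0.05, also without a call in the authors' deposited table. UBE2T, the E2 enzyme that hands ubiquitin to FANCL, fell by 1.53 in A375 alone, rose by 1.12 in HCC827 alone and rose by 0.70 in the A375 combination of the authors' deposited table, with -0.24 in the HCC827 combination. FANCM, the translocase that anchors the core on DNA, rose by 1.06 in A375 alone and by 1.83 ± 0.73 (adjusted p 0.0255) on top of PLX4720 in the authors' deposited table. FANCM stood at 0.48 and -1.17 in the HCC827 comparisons of the authors' deposited table, neither called. The largest absolute change of the core in the A375 combination after FANCM was that of FANCA, -0.95 ± 0.38 (adjusted p 0.0254) in the authors' deposited table.

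FANCD2 and FANCI, the pair that the core complex ubiquitylates, fell together in both A375 comparisons. FANCI fell by 3.38 ± 0.13 (adjusted p 8.52e-148) and FANCD2 fell by 3.31 ± 0.18 (adjusted p 6.06e-70) with 6-thio-dG alone in the authors' deposited table. On top of PLX4720, FANCD2 fell by 1.71 ± 0.39 (adjusted p 3.79e-05) and FANCI fell by 1.59 ± 0.21 (adjusted p 6.94e-13) in the authors' deposited table. The pair parted in its calls in HCC827, where FANCD2 rose by 0.70 ± 0.24 (adjusted p 0.0182) with 6-thio-dG alone and FANCI was 0.28 ± 0.20 without a call in the authors' deposited table. On top of osimertinib, FANCD2 was -0.37 and FANCI was -0.38 in the authors' deposited table, neither called.

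Of the helicases, BLM and BRIP1 moved against WRN by their calls with 6-thio-dG alone. BLM, the helicase that dissolves joined sister strands, fell by 2.47 ± 0.24 (adjusted p 7.55e-24) in A375 and rose by 0.76 in HCC827 with 6-thio-dG alone in the authors' deposited table. BRIP1, a helicase bound by BRCA1 and also named FANCJ, fell by 1.88 ± 0.32 (adjusted p 1.48e-08) in A375 and rose by 1.10 ± 0.31 (adjusted p 0.00285) in HCC827 in the authors' deposited table. WRN, the Werner syndrome helicase, which also unwinds telomeric DNA, rose by 0.83 in A375 and fell by 1.03 ± 0.27 (adjusted p 0.00125) in HCC827 in the authors' deposited table. It was the 1 gene of the 44 (2.27%, against 4.57% of all genes) that rose in A375 and fell in HCC827 with 6-thio-dG alone. With the trend on GC content removed, WRN was 0.15 in A375 (adjusted p 0.709) and -0.89 in HCC827 (adjusted p 0.00633). Its rise was then not called and its fall was. On top of osimertinib, BRIP1 fell by 1.40 ± 0.42 (adjusted p 0.00514) and WRN by 0.58 ± 0.21 (adjusted p 0.0197) in the authors' deposited table, while BLM was -0.69 without a call. On top of PLX4720, BLM was -1.43, WRN was -0.22 and BRIP1 was -0.98 ± 0.44 in the authors' deposited table, with none called. BRIP1 lay just past the threshold there, where the authors' deposited table lists 0.0501 as its adjusted p.

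The structure-specific nucleases cut branched DNA during crosslink repair and at stalled forks. EME1, the partner that activates MUS81, fell by 2.70 ± 0.21 (adjusted p 9.99e-37) in A375 and rose by 0.89 ± 0.26 (adjusted p 0.00419) in HCC827 with 6-thio-dG alone in the authors' deposited table. EME1 was -0.03 and -0.43 in the combinations of A375 and HCC827 in the authors' deposited table, neither called. MUS81, the catalytic subunit, rose by 0.62 in A375 alone, by 0.80 ± 0.14 (adjusted p 1.12e-07) in the A375 combination and by 0.36 ± 0.15 (adjusted p 0.0437) in the HCC827 combination in the authors' deposited table, and was 0.08 in HCC827 alone. MUS81 and EME1 act as 1 enzyme, and in A375 with 6-thio-dG alone the catalytic subunit rose while its partner fell. FAN1, a nuclease recruited by ubiquitylated FANCD2, rose by 1.08 ± 0.15 (adjusted p 1.36e-11) in A375 alone and was -0.50, 0.25 and -0.20 in the other comparisons of the authors' deposited table. Of its exonic bases, 24.3% are shared with MTMR10 on the opposite strand, listed at 0.13 in A375 alone in the authors' deposited table. SLX4, the scaffold that holds these nucleases, was -0.16 and -0.13 with 6-thio-dG alone, rose by 1.02 ± 0.19 (adjusted p 2.13e-07) on top of PLX4720 and was 0.09 on top of osimertinib in the authors' deposited table.

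Among the checkpoint kinases, CHEK1 and CHEK2 fell in A375 with 6-thio-dG alone, and neither ATM nor ATR did. ATM, which answers to breaks, was 0.51 ± 0.42 in A375 without a call and fell by 1.58 ± 0.26 (adjusted p 3.81e-08) in HCC827 with 6-thio-dG alone in the authors' deposited table. ATM fell by 2.50 ± 0.28 (adjusted p 1.45e-18) on top of PLX4720, the largest fall of the 44 in that comparison of the authors' deposited table. It also fell by 0.72 ± 0.25 (adjusted p 0.0134) on top of osimertinib, so that ATM fell in 3 of the 4 comparisons of the authors' deposited table. With the trend on GC content removed, ATM was -0.16 (adjusted p 0.801) on top of osimertinib. It was then -1.43 (adjusted p 7.29e-07) in HCC827 alone and -2.74 (adjusted p 4.36e-22) on top of PLX4720. ATR, the kinase of stalled forks, rose by 0.58 in A375 alone and was -0.14, -0.53 and -0.49 in the other comparisons of the authors' deposited table. ATRIP, its obligate partner, fell by 0.40 in A375 and rose by 1.02 in HCC827 with 6-thio-dG alone, and was -0.11 and 0.23 in the combinations of the authors' deposited table. TREX1 on the same strand shares 27.9% of the exonic bases of ATRIP. CHEK1, the effector kinase of ATR, fell by 1.47 in A375 and rose by 0.51 in HCC827 in the authors' deposited table. CHEK1 was 0.45 on top of PLX4720, with an adjusted p of 0.0501, and -0.39 on top of osimertinib in the authors' deposited table. CHEK2, the effector of ATM, fell by 0.77 in A375 alone and was 0.28, 0.09 and 0.01 elsewhere in the authors' deposited table.

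Mediators of the checkpoint travel with the fork. CLSPN, the adaptor through which ATR reaches CHEK1, fell by 1.52 in A375 and rose by 2.20 ± 0.26 (adjusted p 1.24e-15) in HCC827 with 6-thio-dG alone, the largest rise of the 44 in HCC827 in the authors' deposited table. CLSPN was -0.25 and -0.41 in the combinations of the authors' deposited table, neither called. TIMELESS, which with TIPIN steadies the fork, fell by 2.55 ± 0.13 (adjusted p 7.18e-90) in A375, rose by 1.04 in HCC827 and was -0.04 and -0.16 in the combinations of the authors' deposited table. TIPIN, its partner, fell by 0.47 in A375, was 0.48 in HCC827 and rose by 1.67 ± 0.24 (adjusted p 1.60e-11) on top of PLX4720 in the authors' deposited table, with -0.74 on top of osimertinib. TIMELESS and TIPIN form a heterodimer, and only TIPIN of the pair was called in the A375 combination. Of the exonic bases of TIPIN, 21.0% are shared with the pseudogene RPL9P25. TOPBP1, the activator of ATR, was -0.15, 0.32 and 0.23 in the first 3 comparisons and fell by 0.69 ± 0.18 (adjusted p 0.00119) on top of osimertinib in the authors' deposited table. TIMELESS and CLSPN had the 2 largest changes among the 9 checkpoint genes in A375 alone, CLSPN changing by -1.52 ± 0.24 (adjusted p 6.06e-10) in the authors' deposited table.

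The 3 subunits of RPA, the single-strand binding protein, moved together with 6-thio-dG alone. RPA1, the large subunit, fell by 1.48 ± 0.11 (adjusted p 9.13e-40) in A375 and rose by 0.64 in HCC827 in the authors' deposited table. RPA3, the smallest subunit, fell by 0.81 ± 0.15 (adjusted p 2.56e-07) in A375 and rose by 0.64 ± 0.21 (adjusted p 0.0137) in HCC827 in the authors' deposited table. RPA2, the subunit that the checkpoint kinases phosphorylate, fell by 0.35 in A375 and rose by 1.16 ± 0.19 (adjusted p 2.54e-08) in HCC827 in the authors' deposited table. With the trend on GC content removed, as described further on, RPA2 was -0.26 in A375 (adjusted p 0.0513), so its fall was not called. On top of PLX4720 the trimer split, since RPA2 rose by 0.89 ± 0.13 (adjusted p 1.79e-11) and RPA3 by 0.80 ± 0.18 (adjusted p 3.19e-05) while RPA1 was -0.08 without a call in the authors' deposited table. On top of osimertinib RPA1, RPA2 and RPA3 were 0.20, 0.25 and -0.07 in the authors' deposited table, with 0 of 3 called and 0 of 3 at an unadjusted p under 0.05.

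The response to 6-thio-dG alone differed between the lines for most of the genes. From the authors' values, the difference of A375 minus HCC827 passed an adjusted p of 0.05 for 34 of the 44 genes, with 26 lower in A375, against 28.9% of all genes, and 8 higher, against 26.2%. The test set the difference of 2 fold changes against their implied errors and adjusted over all genes with a test. RAD54L had the largest gap, -5.40 ± 0.29 (adjusted p 9.52e-76) from the authors' deposited table. FANCA differed by -4.12 ± 0.28 (adjusted p 1.46e-46), and FANCD2 by -4.01 ± 0.30 (adjusted p 4.71e-38), from the authors' deposited table. XRCC3 differed by -3.76 ± 0.29 (adjusted p 1.26e-36) and CLSPN by -3.72 ± 0.35 (adjusted p 4.94e-25) from the authors' deposited table. These 5 genes span strand exchange, the core complex, its substrate and the checkpoint. In the other direction RAD50 was higher in A375 by 2.95 ± 0.44 (adjusted p 2.83e-10) and ATM by 2.08 ± 0.49 (adjusted p 8.13e-05) from the authors' deposited table. WRN followed at 1.86 ± 0.42 (adjusted p 4.10e-05), FAN1 at 1.58 ± 0.26 (adjusted p 8.31e-09) and NBN at 1.21 ± 0.33 (adjusted p 0.000749) from the authors' deposited table. RBBP8, ATR and MUS81 were the remaining genes with a higher fold change in A375. ATM, ATR, RAD50 and NBN thus differed in 1 direction and the RPA subunits, ATRIP, CHEK1 and CLSPN in the other. Removing the trend on GC content, as described further on, gave 5 genes higher and 29 lower. ATR was then 0.02 in A375 and -0.01 in HCC827, NBN 0.23 and 0.06, and RBBP8 0.03 and -0.06.

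By calls, 21 of the 44 genes (47.7%) fell in A375 and rose in HCC827 with 6-thio-dG alone in the authors' deposited table, against 822 of all genes (6.95%). These were BRCA1, BARD1, RAD51AP1, RAD51D, XRCC3, RAD54L, FANCA, FANCE, FANCG, UBE2T, FANCD2, BRIP1, BLM, EME1, ATRIP, CHEK1, CLSPN, TIMELESS, RPA1, RPA2 and RPA3. With the GC trend removed, as described further on, the falls of RAD51D, ATRIP and RPA2 in A375 were no longer called. No gene of the 44 rose in both lines, against 3.32% of all genes, and none fell in both, against 4.84%, at the authors' adjusted p under 0.05.

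**Figure D2:**
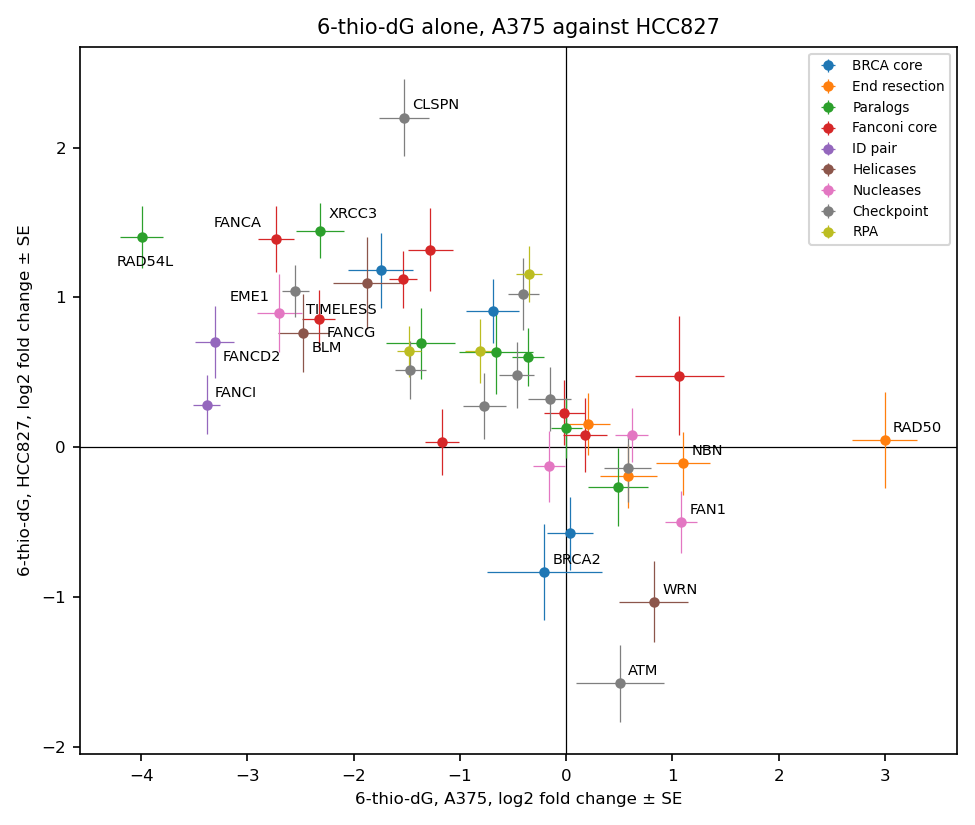
Log2 fold change with 6-thio-dG alone in A375 (horizontal) against HCC827 (vertical) for the 44 genes, coloured by role, with bars of 1 implied standard error. Most points lie in the upper left part, with RAD54L at -3.99 and 1.40, and RAD50, WRN, FAN1 and ATM lie to the right of 0.

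Cells that copy DNA express many of these genes, and in RNA from whole cultures fewer cells in S phase and less RNA per cell cannot be told apart. A list of 17 S phase and proliferation genes is therefore given beside the 44 genes. With 6-thio-dG alone, 17 of the 17 fell in A375 with a median of -2.76, and 13 rose and 0 fell in HCC827 with a median of 0.97 in the authors' deposited table. At an unadjusted p under 0.05 the count of falls in HCC827 was also 0. Over all genes, 33.7% fell in A375 alone and 14.8% rose in HCC827 alone. On top of PLX4720, 9 fell (52.9%, against 29.3% of all genes) and 2 rose (11.8%, against 31.2%) with a median of -0.60 in the authors' deposited table. On top of osimertinib 6 fell (35.3%, against 17.9%) and 0 rose (against 17.3%) with a median of -0.37. By sign, called or not, 30 of the 44 genes lay below 0 in A375 and 34 above 0 in HCC827 with 6-thio-dG alone, the directions in which the list moved, and its part in their changes was not tested. In A375 alone the mitotic kinase PLK1 was listed at -5.97 with a p-value of 0, and the proliferation marker MKI67 fell by 5.15 ± 0.16 (adjusted p 2.27e-213) in the authors' deposited table. In HCC827 alone CCNE2, a cyclin of S phase entry, rose by 3.33 ± 0.32 (adjusted p 1.67e-23) and the transcription factor E2F1 by 1.95 ± 0.19 (adjusted p 5.62e-23) in the authors' deposited table. In the A375 combination MKI67 fell by 3.51 ± 0.19 (adjusted p 2.61e-75) and the topoisomerase TOP2A fell by 2.96 ± 0.20 (adjusted p 6.05e-50) in the authors' deposited table. In the HCC827 combination TOP2A fell by 1.41 ± 0.21 (adjusted p 7.14e-09) and the mitotic kinase CDK1 by 1.14 ± 0.29 (adjusted p 0.000885) in the authors' deposited table.

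Other genes of the same pathways were taken from 3 further lists. Of 26 other recombination genes, 13 fell and 8 rose in A375 and 1 fell and 8 rose in HCC827 with 6-thio-dG alone, with medians of -0.40 and 0.30 in the authors' deposited table. TONSL, which guards damaged forks, fell by 2.83 ± 0.20 (adjusted p 1.63e-42) in A375, and RMI2, a subunit of the BLM complex, fell by 2.65 ± 0.20 (adjusted p 2.98e-40) there in the authors' deposited table. EXO1, a resection nuclease, rose by 1.67 ± 0.20 (adjusted p 2.81e-15) and HROB, which recruits the MCM8 and MCM9 helicase, rose by 1.47 ± 0.24 (adjusted p 2.16e-08) in HCC827 in the authors' deposited table. In the A375 combination 2 of the 26 fell (7.69%, against 29.3% of all genes) and 7 rose (26.9%, against 31.2%) with a median of 0.19. Among them TONSL fell by 1.58 ± 0.23 (adjusted p 1.92e-11) and UIMC1, a ubiquitin reader of the BRCA1-A complex, rose by 1.50 ± 0.13 (adjusted p 7.37e-29) in the authors' deposited table. In the HCC827 combination 6 fell (23.1%, against 17.9% of all genes) and 3 rose (11.5%, against 17.3%) with a median of -0.26. The largest changes were those of PARPBP, an inhibitor of recombination, down by 1.05 ± 0.38 (adjusted p 0.0194) and RMI1, a partner of BLM, down by 1.01 ± 0.35 (adjusted p 0.0165) in the authors' deposited table.

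Among 13 other Fanconi pathway genes, 7 fell (53.8%, against 33.7% of all genes) and 3 rose (23.1%, against 31.3%) in A375 with 6-thio-dG alone. In HCC827 alone 0 fell (against 14.4%) and 3 rose (23.1%, against 14.8%), and 0 fell there also at an unadjusted p under 0.05. The medians were -0.56 in A375 and 0.05 in HCC827 in the authors' deposited table. RFWD3, a ubiquitin ligase for RPA, fell by 1.36 ± 0.11 (adjusted p 3.50e-32) and REV3L, the catalytic subunit of a bypass polymerase, rose by 1.47 ± 0.32 (adjusted p 1.89e-05) in A375 in the authors' deposited table. CENPX, a partner of FANCM, rose by 1.68 ± 0.22 (adjusted p 1.12e-12) and FAAP24, another, by 1.39 ± 0.27 (adjusted p 4.94e-06) in HCC827 in the authors' deposited table. In the A375 combination 4 fell (30.8%, against 29.3% of all genes) and 3 rose (23.1%, against 31.2%) with a median of 0.11. The core partner FAAP20 fell by 0.82 ± 0.17 (adjusted p 6.23e-06) and USP1, which removes ubiquitin from FANCD2, rose by 0.81 ± 0.28 (adjusted p 0.00869) in the authors' deposited table. In the HCC827 combination 3 fell (23.1%, against 17.9% of all genes) and 4 rose (30.8%, against 17.3%) with a median of 0.05. USP1 fell by 1.05 ± 0.19 (adjusted p 4.93e-06) and REV3L by 1.01 ± 0.31 (adjusted p 0.00539) in the authors' deposited table.

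Among 18 other checkpoint genes, 10 fell and 4 rose in A375 and 1 fell and 9 rose in HCC827 with 6-thio-dG alone, with medians of -0.60 and 0.47 in the authors' deposited table. PKMYT1, a kinase that holds CDK1 inactive, fell by 3.64 ± 0.21 (adjusted p 1.91e-63) in A375 and rose by 1.61 ± 0.22 (adjusted p 9.47e-12) in HCC827 in the authors' deposited table. CDC25B, a phosphatase that releases CDK1, fell by 3.30 ± 0.12 (adjusted p 1.21e-160) in A375, and CDC25A, its relative and a target of CHEK1, rose by 1.68 ± 0.21 (adjusted p 7.13e-14) in HCC827 in the authors' deposited table. In the A375 combination 7 fell (38.9%, against 29.3% of all genes) and 7 rose (38.9%, against 31.2%) with a median of 0.55. The largest changes were those of CDC25C, another CDK1 phosphatase, down by 1.81 ± 0.58 (adjusted p 0.00422) and CDC25B down by 1.75 ± 0.15 (adjusted p 1.64e-31) in the authors' deposited table. In the HCC827 combination 3 fell (16.7%, against 17.9% of all genes) and 0 rose (against 17.3%) with a median of -0.08, and at an unadjusted p under 0.05, 1 gene lay above 0. The largest changes were those of RIF1, which limits resection, down by 0.87 ± 0.23 (adjusted p 0.00128) and the kinase WEE1 down by 0.82 ± 0.23 (adjusted p 0.00237) in the authors' deposited table.

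**Figure D3:**
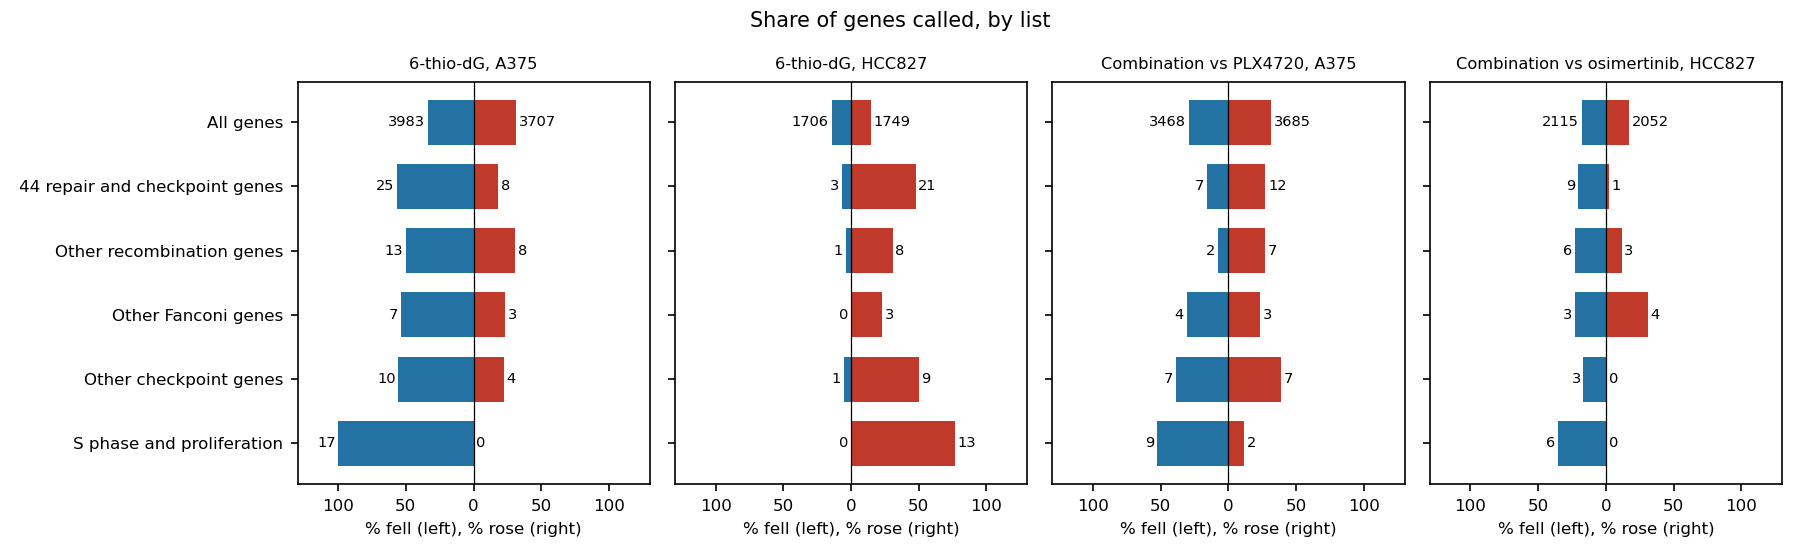
Percent of each gene list that fell (blue, left) and rose (red, right) in the 4 comparisons of the authors' deposited table, with the number of genes beside each bar. With 6-thio-dG alone the blue bars exceed those of all genes in A375 for each list of repair, checkpoint and S phase genes, and 17 of 17 S phase genes fell there.

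The fold change with 6-thio-dG in A375 was next compared with and without PLX4720. Its baseline was DMSO for 6-thio-dG alone and PLX4720 for the combination, and PLX4720 against DMSO is not listed. What PLX4720 alone had already changed is therefore unknown. From the authors' values, the fold change in the combination was higher than with 6-thio-dG alone for 22 of the 44 genes, against 28.5% of all genes, and lower for 6, against 24.1%. EME1 was higher by 2.67 ± 0.45 (adjusted p 2.47e-08) and TIMELESS by 2.51 ± 0.22 (adjusted p 1.04e-28) from the authors' deposited table, both of them near 0 in the combination. RAD54L was higher by 2.42 ± 0.53 (adjusted p 2.34e-05) from the authors' deposited table, although it fell in both comparisons. UBE2T was higher by 2.23 ± 0.24 (adjusted p 2.11e-19) and TIPIN by 2.13 ± 0.29 (adjusted p 1.55e-12) from the authors' deposited table, and both turned from a fall to a rise. Of the 44 genes, 6 (13.6%, against 5.7% of all genes) fell alone and rose in the combination, namely RAD51D, FANCE, UBE2T, TIPIN, RPA2 and RPA3. The same number, 6 (13.6%, against 16.9% of all genes), fell in both, namely XRCC3, RAD54L, FANCA, FANCG, FANCD2 and FANCI. FANCM, RBBP8 and MUS81 rose in both (6.82%, against 15.3% of all genes), and 13 of the 25 genes that fell alone were not called in the combination (29.5% of the 44, against 11.1% of all genes).

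Before any trend was removed, the genes with a lower fold change in the A375 combination than alone included both apical kinases. ATM was lower than with 6-thio-dG alone by a difference of -3.01 ± 0.50 (adjusted p 1.48e-08) and RAD50 by one of -2.97 ± 0.45 (adjusted p 3.45e-10) from the authors' deposited table. ATR differed by -1.10 ± 0.33 (adjusted p 0.00218), WRN by -1.05 ± 0.44 (adjusted p 0.0356) and NBN by -0.89 ± 0.39 (adjusted p 0.0445) from the authors' deposited table. FAN1 was the last of the 6. With the GC trend removed, as described further on, NBN was 0.23 alone and -0.10 in the combination, and WRN 0.15 and -0.47. ATM was then -0.16 and -2.74, RAD50 2.59 and -0.17, ATR 0.02 and -0.75, and FAN1 1.12 and 0.18. With length and span removed as well, ATR was 0.08 and -0.42, and the smaller count after that step is given further on.

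The same comparison was made in HCC827 with and without osimertinib. Here too osimertinib against DMSO is not listed, so what osimertinib alone had already changed is unknown. From the authors' values, the fold change in the combination was lower for 21 of the 44 genes, against 11.4% of all genes, and higher for 0, against 10.8%, with 1 higher at an unadjusted p under 0.05. CLSPN was lower by a difference of -2.61 ± 0.49 (adjusted p 4.12e-06) and BRIP1 by one of -2.50 ± 0.52 (adjusted p 4.90e-05) from the authors' deposited table. RAD51AP1 differed by -1.79 ± 0.44 (adjusted p 0.000793), BARD1 by -1.77 ± 0.46 (adjusted p 0.00177) and BRCA1 by -1.69 ± 0.36 (adjusted p 8.32e-05) from the authors' deposited table. Of the 44 genes, 3 (6.82%, against 1.23% of all genes) rose alone and fell in the combination, namely BRCA1, RAD51AP1 and BRIP1. The other 18 of the 21 that rose alone were not called in the combination (40.9% of the 44, against 9.61% of all genes). WRN and ATM fell in both HCC827 comparisons (4.55%, against 4.08%). With the GC trend removed, the falls of BRCA1, RAD51AP1, BRIP1, WRN and ATM in the HCC827 combination lost their calls. The rises of BRCA1, RAD51AP1 and BRIP1 with 6-thio-dG alone kept theirs. This step is described further on.

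**Figure D4:**
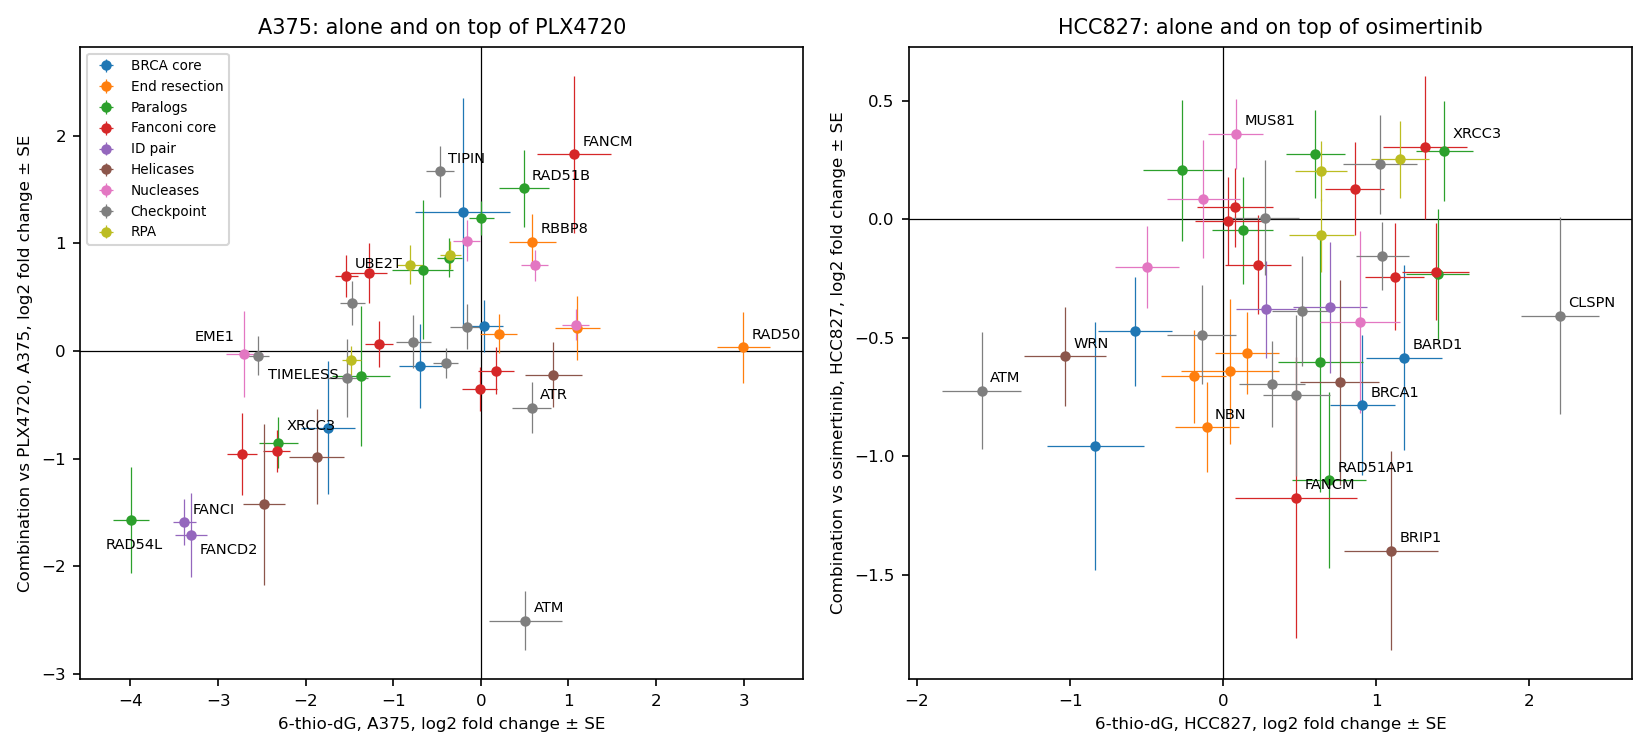
Log2 fold change with 6-thio-dG alone (horizontal) against that on top of the targeted drug (vertical) in A375 (left) and HCC827 (right) for the 44 genes, with bars of 1 implied standard error and colours by role. In A375, RAD54L, FANCD2 and FANCI lie low on both axes and ATM falls to -2.50 on the vertical axis, and in HCC827 CLSPN lies at 2.20 on the horizontal and -0.41 on the vertical axis.

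The combinations also differed between the lines. From the authors' values, A375 minus HCC827 was higher for 14 of the 44 genes, against 28.9% of all genes, and lower for 6, against 27.5%. FANCM had the largest gap at 3.00 ± 0.94 (adjusted p 0.00352), followed by TIPIN at 2.41 ± 0.41 (adjusted p 4.08e-08), from the authors' deposited table. RBBP8 differed by 1.68 ± 0.32 (adjusted p 8.56e-07), RAD51B by 1.30 ± 0.47 (adjusted p 0.0111) and RAD51C by 1.28 ± 0.28 (adjusted p 1.58e-05) from the authors' deposited table. ATM was lower in A375 by a difference of -1.78 ± 0.37 (adjusted p 6.63e-06) from the authors' deposited table. FANCD2 differed by -1.34 ± 0.48 (adjusted p 0.0109) and RAD54L by -1.34 ± 0.56 (adjusted p 0.0328) from the authors' deposited table. FANCI differed by -1.21 ± 0.30 (adjusted p 0.000142) and XRCC3 by -1.14 ± 0.31 (adjusted p 0.000845) from the authors' deposited table. The shares of the 44 genes in both directions were near or below those of all genes. With the GC trend removed, as described further on, 8 genes were higher in A375. XRCC3 was then -0.40 in A375 and -0.09 in HCC827, RAD54L -1.48 and -0.41, and RAD51B 1.36 and 0.48. ATM, at -2.74 and -0.16, and FANCI, at -1.74 and -0.10, stood wider apart than before.

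Fold changes ran with the GC content of the transcript, most of all in the HCC827 combination. Across 11737 genes with an annotated transcript, Spearman's rho of GC content with the authors' fold change was 0.75 in the HCC827 combination, -0.38 in A375 alone, 0.21 in HCC827 alone and -0.26 in the A375 combination. Over the 44 genes it was 0.84, -0.36, 0.38 and -0.01 in that order. These are descriptions over genes, which share libraries and are not independent. The transcripts of the 44 genes were poorer in GC than most, with a median of 43.4% against 48.7%. With the GC trend removed, 0 of the 44 genes were called in the HCC827 combination in either direction, and the 9 falls and 1 rise there, BRCA1, RBBP8, NBN, MRE11, RAD51AP1, BRIP1, WRN, ATM, TOPBP1 and MUS81, all lost their calls. MRE11 moved from -0.56 in the authors' deposited table to 0.03. In A375 alone, the same step gave 27 falls and 3 rises. Of the 25 falls, 22 were kept, RAD51D, ATRIP and RPA2 were no longer called, and BRCA2, RAD51C, XRCC2, FANCL and MRE11 were newly called as lower. Of the 8 rises there, those of FANCM, RBBP8, NBN, WRN and ATR were no longer called. In HCC827 alone it gave 23 rises, the 21 from before with XRCC2 and TIPIN, and 2 falls, where BRCA2 lost its call. In the A375 combination it gave 11 rises and 9 falls. There 5 of the 7 falls were kept, XRCC3, FANCA and the rise of FANCM were no longer called, and FANCL, BRIP1, BLM and ATR were newly called as lower. XRCC2 and FANCL, called in none of the 4 comparisons of the authors' deposited table, were thus called in 2 each after this step.

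**Figure D5:**
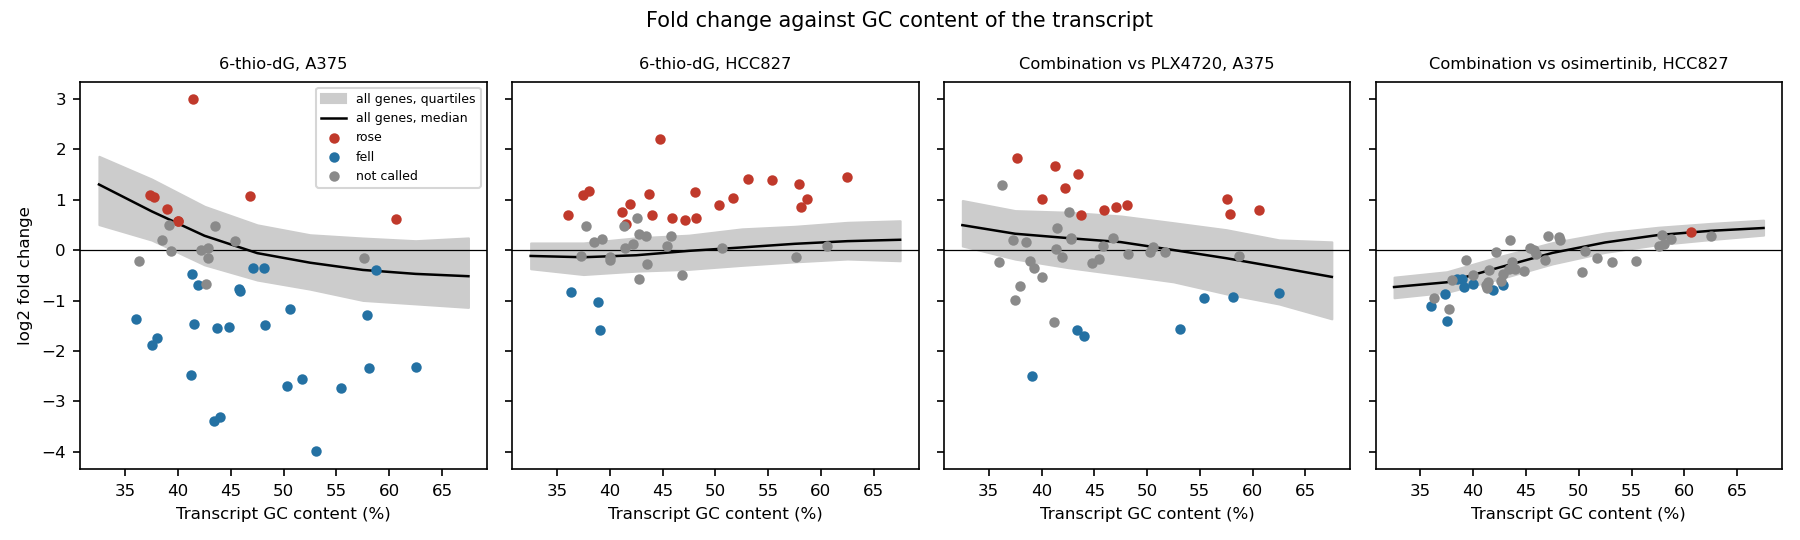
Log2 fold change in the authors' deposited table against the GC content of the transcript in the 4 comparisons, with the median (black line) and quartiles (grey band) of all genes in steps of 5% GC and the 44 genes as points (red rose, blue fell, grey not called). In the HCC827 combination the 44 genes lie along the band of all genes, while in A375 alone most blue points lie below it and in HCC827 alone most red points lie above it.

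Promoters were examined because 21 of the genes moved together. Windows from 250 bases before to 50 bases after the start, from RefSeq on GRCh38.p14, were found for 39 of the 44 genes, and FANCI, WRN, NBN, RPA2 and RPA3 had no entry. Sets of letters of 2 kinds were searched on both strands. TTTCCCGC, TTTCGCGC, TTTGCCGC and TTTGGCGC stood for the site bound by E2F factors, which drive genes of S phase, and TTTGAA and TTCGAA for the cell-cycle homology region used by genes of late cell cycle. E2F letters were in 6 of the 39 windows (15.4%), against 3.33% of 27305 promoters and 5.59% of 9581 promoters of genes in the authors' deposited table. Homology-region letters were in 4 of 39 (10.3%), against 16.6% and 10.7%. Among the genes that fell in A375 and rose in HCC827, 3 of 19 windows (15.8%) held E2F letters, and among the others 3 of 20 (15.0%). The 6 genes with E2F letters were XRCC2, FANCA, FANCC, FANCD2, TOPBP1 and CLSPN. A match is a description of letters and not of binding.

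FANCD2, CLSPN and TOPBP1 held the E2F letters close to the start, beginning at positions -2, -5 and -7 from it, and are shown because FANCD2 and CLSPN were among the genes with the widest gap between the lines while TOPBP1 was not called in either with 6-thio-dG alone. The windows shown were picked after the values were seen. Capitals mark the matched letters, which read 5′ to 3′ on the strand of the gene as the reverse complement of TTTCCCGC or TTTCGCGC. The FANCD2 window is chr3:10026187-10026486 on the plus strand. The stretches of CLSPN, chr1:35769949-35770008, and TOPBP1, chr3:133661912-133661971, are 60 bases around the start on the minus strand.
FANCD2: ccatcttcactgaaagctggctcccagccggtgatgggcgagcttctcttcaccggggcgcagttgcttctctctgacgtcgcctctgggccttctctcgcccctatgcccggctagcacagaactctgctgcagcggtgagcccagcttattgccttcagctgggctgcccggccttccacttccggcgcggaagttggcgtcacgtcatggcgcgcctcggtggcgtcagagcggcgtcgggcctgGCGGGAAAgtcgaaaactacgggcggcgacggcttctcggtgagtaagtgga
CLSPN: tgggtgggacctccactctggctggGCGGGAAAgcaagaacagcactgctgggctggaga
TOPBP1: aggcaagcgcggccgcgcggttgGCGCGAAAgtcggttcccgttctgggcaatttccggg

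The other windows belong to the genes with the largest changes in the paralog and checkpoint groups. RAD54L (chr1:46247438-46247737, plus strand), which fell furthest in A375, XRCC3 (chr14:103715402-103715701, minus strand) and TIMELESS (chr12:56449377-56449676, minus strand) held no letters of either kind in the window. ATM (chr11:108222817-108223116, plus strand), which fell in 3 comparisons before the GC trend was removed, held TTTGAA at position -20, in capitals.
RAD54L: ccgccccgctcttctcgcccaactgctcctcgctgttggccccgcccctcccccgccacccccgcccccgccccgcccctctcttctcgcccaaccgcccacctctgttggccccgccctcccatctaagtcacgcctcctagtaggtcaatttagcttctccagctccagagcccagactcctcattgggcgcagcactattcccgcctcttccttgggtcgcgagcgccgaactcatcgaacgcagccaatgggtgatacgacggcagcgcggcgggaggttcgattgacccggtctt
XRCC3: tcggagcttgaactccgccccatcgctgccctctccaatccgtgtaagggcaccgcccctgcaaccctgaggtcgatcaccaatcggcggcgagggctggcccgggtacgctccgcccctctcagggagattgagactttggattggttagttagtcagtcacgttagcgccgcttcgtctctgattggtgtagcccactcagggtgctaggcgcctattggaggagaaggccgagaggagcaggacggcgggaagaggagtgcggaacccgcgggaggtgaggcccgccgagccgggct
TIMELESS: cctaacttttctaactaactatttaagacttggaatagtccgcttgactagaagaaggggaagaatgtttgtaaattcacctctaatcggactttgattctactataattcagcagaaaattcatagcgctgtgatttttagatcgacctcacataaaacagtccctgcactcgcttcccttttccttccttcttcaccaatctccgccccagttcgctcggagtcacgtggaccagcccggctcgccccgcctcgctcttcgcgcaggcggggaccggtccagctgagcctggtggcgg
ATM: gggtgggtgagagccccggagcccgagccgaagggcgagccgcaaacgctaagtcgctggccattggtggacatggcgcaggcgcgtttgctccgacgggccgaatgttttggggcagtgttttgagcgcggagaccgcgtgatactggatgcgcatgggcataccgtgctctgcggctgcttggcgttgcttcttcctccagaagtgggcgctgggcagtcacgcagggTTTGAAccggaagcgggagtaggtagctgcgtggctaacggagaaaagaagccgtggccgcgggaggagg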

How the data were processed

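RNA was measured by sequencing after poly-T selection and preparation with the NEB Next Ultra kit, per the labels' protocols, which do not state whether strand was kept. Per the submitters' processing notes, FastQC, Trimmomatic and STAR were used with hg38. Not given in the sources used here are their versions, how reads were counted and annotated, which test was run, and whether fold changes were shrunk or genes filtered. Per the file headers, the authors deposited log2 fold changes of the first group over the second. Per the file headers, the authors also deposited raw and adjusted values of each gene's p-value. The table holds no values per library, so depth per library is unknown and the authors' tests were used as they stand.

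An implied standard error was computed for each value as the fold change divided by the two-sided normal deviate of its p-value. Genes with a p-value of 0 (7 in A375 alone, 16 in the A375 combination, none of the 44) got no error and entered no test of differences. Differences between comparisons were tested on these errors, two-sided, in 4 pairs of comparisons, with Benjamini-Hochberg adjustment over all genes of the table with an error. With the header read as above, the compared fold changes share no libraries. These steps were tested on simulated data with known answers. The simulated p-values came from the same normal formula that gives the implied errors. That test could therefore not check whether the errors hold for the authors' own test. GC content, length and exon overlaps came from GENCODE release 29 (longest protein-coding transcript), which matched 11737 of 11828 symbols (99.2%) and all 44 genes. GC and other trends were removed by a lowess curve over all genes (fraction 0.3), with 5 rounds where GC, length and span entered together. Promoter windows came from RefSeq (GRCh38.p14), taking the first listed for the 12 genes with more than 1. Python 3.11.15, pandas 2.3.3, scipy 1.17.1 and statsmodels 0.14.6 were used.

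The 44 genes and the lists were chosen with earlier results of these data known. For 1 recombination gene outside the 44, results are not reported here, and the list that held it was summarised without it. Every gene of the 44 was named. Errors and adjusted p were printed for the 2 called genes with the largest change in each role group and comparison, and for a few others of the 44 chosen after their values were seen. The 5 largest and 5 smallest differences past the threshold were printed in each pair of comparisons, and the 2 called genes with the largest change in each other list and comparison. Alternatives were a stricter threshold, a minimum change, another adjustment, another reading of the p-values, removal of trends and, chosen after seeing the data, leaving out genes with shared exons.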

Additional observations from a re-analysis of the deposited data

Results flagged for a closer look

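Responses that differed between A375 and HCC827, by the test of the difference itself, deserve a second look. From the authors' values, the fold change with 6-thio-dG alone was lower in A375 for 26 of the 44 genes, against 28.9% of all genes. It was higher in A375 for 8, against 26.2%. The differences (A375 minus HCC827, log2) reached -5.40 for RAD54L, -4.12 for FANCA, -4.01 for FANCD2, -3.76 for XRCC3 and -3.72 for CLSPN. In the other direction they were 2.95 for RAD50, 2.08 for ATM, 1.86 for WRN, 1.58 for FAN1 and 1.21 for NBN. With the GC trend removed, NBN was 0.23 in A375 and 0.06 in HCC827.

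In the combinations, the fold change was higher in A375 than in HCC827 for 14 of the 44 genes, against 28.9% of all genes. It was lower for 6, against 27.5%. The differences were 3.00 for FANCM, 2.41 for TIPIN, 1.68 for RBBP8, 1.30 for RAD51B and 1.28 for RAD51C. They were -1.78 for ATM, -1.34 for FANCD2, -1.34 for RAD54L, -1.21 for FANCI and -1.14 for XRCC3. With the GC trend removed, 8 genes were higher in A375. XRCC3 was then -0.40 in A375 and -0.09 in HCC827, and FANCI -1.74 and -0.10. The fold change of ATM was higher in A375 than in HCC827 with 6-thio-dG alone, 0.51 without a call against -1.58. In the combination it was lower in A375, -2.50 against -0.72.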

How the results depend on the processing

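The counts of 26 genes lower in A375 than HCC827 with 6-thio-dG alone and of 22 higher in the A375 combination than alone stayed within 1.5 times under every alternative run. At an adjusted p under 0.01, 4 genes rose in A375 alone, 0 rose and 5 fell in the HCC827 combination, 5 were higher in A375 than HCC827 alone and 12 were lower in the HCC827 combination than alone. At a change of at least 2-fold, 4 rose in A375 alone, 11 rose in HCC827 alone, 6 rose and 4 fell in the A375 combination, and 0 rose and 2 fell in the HCC827 combination. With a difference of at least 1, 5 were higher in A375 alone and 6 in the A375 combination than in HCC827. With the GC trend removed, 3 rose in A375 alone, 0 rose and 0 fell in the HCC827 combination, 5 were higher in A375 than HCC827 alone, 8 in the combination, and 1 was higher in the HCC827 combination than alone. With the GC, length and span trends removed, these counts were 4, 0, 0, 5, 6 and 1, and 3 were lower in the A375 combination than alone. Reading the p-values as t with 4 degrees of freedom gave 2 higher in the HCC827 combination than alone. That reading changed only the implied errors, and the differences were still set against a normal. It makes every error smaller, so it can only add calls and is no stricter test. Leaving out the 7 genes that share over 20% of their exonic bases, an alternative chosen after seeing the data, left 4 falls in the A375 combination, by its construction with fewer genes. With the GC trend removed, signs turned for 6 of the 44 genes in A375 alone, 2 in HCC827 alone, 4 in the A375 combination and 12 in the HCC827 combination. Those called before or after were RAD51C (-0.32), MRE11 (-0.53) and ATRIP (0.015) in A375 alone and MRE11 (0.034) in the HCC827 combination. With length and span removed as well, signs turned for 7, 5, 6 and 14 genes in that order, UBE2T (-0.028) in the A375 combination and WRN (0.061) and MUS81 (-0.028) in the HCC827 combination among those called before. The cause was not tested. No paired analysis was possible because the table holds no values per library, and for the same reason no library could be left out. Depth per library is unknown, and errors rest on at most 2 libraries a group.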
